A study of Mus musculus with 12 samples.

Results

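Grhl1, Grhl2 and Grhl3 are the mouse Grainyhead-like genes, and this account covers the contacts of the splicing regulator ESRP1 with their RNA. The 3 genes were taken from 21900 protein-coding genes of the annotation, and the sites used were those inside each gene's GRCm38 span on the gene's own strand. Such sites numbered 60 of 73602 in list 1, 31 of 40014 in list 2 and 46 of 53864 in list 3.

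Grainyhead-like proteins are DNA-binding transcription factors of surface epithelia. In mice, Grhl1 is known for control of desmosomal cadherin genes and for hair anchorage, Grhl2 for control of E-cadherin and claudin genes and for neural tube closure, and Grhl3 for formation of the skin barrier and for wound repair. ESRP1 is an epithelial RNA-binding protein that sets the choice of alternative exons, so its contacts with these messages concern RNA and not the factors' DNA targets.

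The study used enhanced crosslinking and immunoprecipitation, in which ultraviolet light fixes a protein to the RNA it touches and reverse transcription tends to stop at the fixed nucleotide. All material was back-skin epidermis of pups on postnatal day 1 that were homozygous for a FLAG-tagged Esrp1 allele (labelled Esrp1FLAG/FLAG), and no untagged, wild-type or Esrp1-deficient group is among the labels. There were 6 FLAG immunoprecipitates and 6 inputs without antibody, from biological replicates 1 to 6. The authors deposited 3 lists of single-nucleotide sites, each called with input on 2 replicates together: list 1 on replicates 1 and 2, list 2 on replicates 3 and 4, and list 3 on replicates 5 and 6.

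Read depth per library is unknown, and the lists hold only sites that passed the authors' calling. Each site carries a score that the authors deposited without a stated scale, and it was used only to rank sites within a list. No condition is compared in these files, so no test between groups was possible, and recurrence across the 3 lists stood in for replication. Sites were called with input, but the lists carry no RNA abundance and no separate input values. A gene with many sites and a gene with much RNA can therefore not be told apart here. Of 15 keratinocyte markers, 5 have a strand in the tables used, and 2 of these had a region of sites common to all 3 lists, against 16.5% of all protein-coding genes of given strand. Of the other 10, counted on either strand, 7 had such a region, against 18.5% of all protein-coding genes counted that way. The markers of other skin cells, on their own strand or on either strand where it is not given, had no such region. These were 0 of 6 dermal fibroblast, 0 of 5 melanocyte, 0 of 5 immune and 0 of 3 endothelial genes. With lists this short, a count of 0 cannot be told apart from the share over all genes. Nor was the split clean in sites: Col3a1 and Dct had 5 sites each over the lists, while the keratinocyte markers Krt14 and Krt1 had 0.

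Grhl1 carried most of the family's sites. Its span, chr12:24572232-24617391 on the plus strand, held 50 sites in list 1, 23 in list 2 and 32 in list 3 (35.0 ± 13.7, SD, n = 3 lists). As a share of each list this was 6.79, 5.75 and 5.94 sites per 10000, so the lists differed less in these shares than in the counts. The minus strand of the same span held 0 sites in all of the lists.

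Grhl3, at chr4:135541887-135573632 on the minus strand, held 8, 4 and 7 sites in lists 1, 2 and 3 (6.3 ± 2.08, SD, n = 3 lists). These were 1.09, 1.0 and 1.3 sites per 10000 of each list, and again 0 sites lay on the opposite strand. Grhl2, at chr15:37232821-37363569, was counted on the plus strand, which is its strand from general knowledge of the gene and not from the annotation used. It held 2, 4 and 7 sites (4.3 ± 2.52, SD, n = 3 lists). Its shares were 0.272, 1.0 and 1.3 sites per 10000, the lowest of the family in list 1. The Grhl1 shares lay above those of Grhl2 and Grhl3 in every list, while those of Grhl2 and Grhl3 overlapped.

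**Figure D1:**
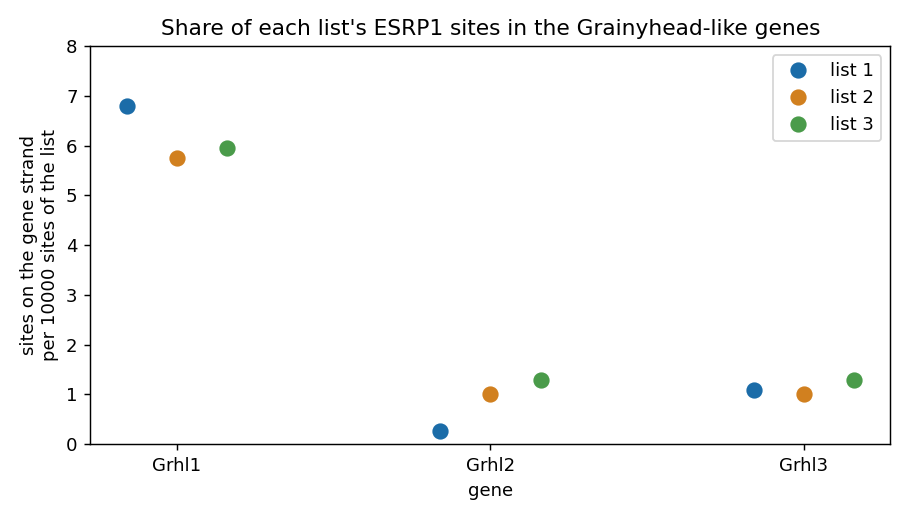
Sites on the gene strand per 10000 sites of each list (vertical axis) for the 3 Grainyhead-like genes (horizontal axis), 1 point per list of 2 pooled replicates. The Grhl1 points lie between 5.75 and 6.79, and those of Grhl2 and Grhl3 lie at or below 1.3.

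Sites whose positions differed by at most 10 nt, from any list, were joined into regions, and a region that held sites of every list is called a region in all 3 lists. Grhl1 had 7 such regions, Grhl2 had 1 and Grhl3 had 1. At least 1 was present in 2890 of 17493 protein-coding genes whose strand is given, or 16.5%, and a site in any list in 34.1%. At least 7 regions in all 3 lists were present in 24 genes, or 0.137%, and 10 genes had more than Grhl1. By its 105 sites over the lists, Grhl1 was number 16 of 17493.

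Longer genes offer more RNA to contact, so each member was also set beside genes of 0.5 to 2 times its span. For Grhl1, with 45160 nt, 22.4% of 5234 such genes had a region in all 3 lists, 0.229% (12 genes) had at least 7, and 0.115% (6 genes) had at least as many sites. For Grhl3, with 31746 nt, 19.8% of 6000 genes had at least 1 region in all 3 lists, and 10.2% had at least its 19 sites. For Grhl2, with 130749 nt, 28.3% of 2446 genes had at least 1, and 24.5% had at least its 13 sites. Per 10 kb of span, introns included, there were 1.55 regions in all 3 lists in Grhl1, 0.0765 in Grhl2 and 0.315 in Grhl3. Thus the Grhl1 count was rare among genes of like span, whereas those of Grhl2 and Grhl3 were shared by many.

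**Figure D2:**
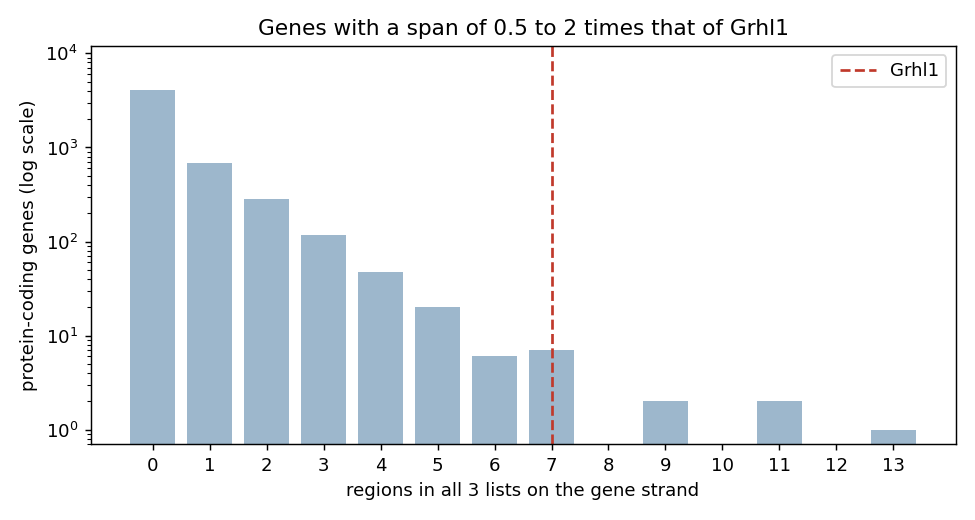
Number of protein-coding genes (vertical axis, log scale) by their count of regions in all 3 lists (horizontal axis), among 5234 genes with a span of 0.5 to 2 times that of Grhl1, without Grhl1 itself. The dashed line marks the 7 regions of Grhl1; 12 of these genes had as many or more.

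The Grhl1 regions fell into a group at the 3′ end of the gene and 3 scattered ones upstream. In all, the gene held 31 regions, of which 7 came from all 3 lists, 8 from 2 lists and 16 from 1 list. Over all protein-coding genes of given strand, 18.5% of 25892 regions came from all 3 lists. The 8 regions found in 2 lists were shared by lists 1 and 3 in 6 cases and by lists 1 and 2 in 2 cases. Without list 2, the smallest list, Grhl1 had 13 regions common to the other lists, against 7 without list 1 and 9 without list 3. Over all protein-coding genes of given strand, 20.4% had such a region without list 2. The share was 17.9% without list 1 and 20.5% without list 3. These are shares of genes with at least 1 region and not counts per gene, so they do not show whether the Grhl1 rise was usual. The 13 regions without list 2 are the 7 from all 3 lists and the 6 shared by lists 1 and 3 only. Why list 2 lacked those 6 was not tested.

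At the 5′ end of Grhl1, the first region covered chr12:24572580-24572583, 348 nt from the start of the span. Its highest scores were 103, 23.9 and 42.5 in lists 1, 2 and 3, which placed its strongest site at percentiles 94.9, 71.0 and 78.1 of the scores of each list. The next region, chr12:24575824-24575831, lay 3592 nt from the start and had highest scores of 18.6, 45.6 and 53.3 (percentiles 62.9, 87.2 and 83.9). All 3 lists had their highest score at the same nucleotide there, 24575825, although list 1 ranked it lower than the other lists did.

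The RefSeq promoter table gives Grhl1 a pair of transcript starts, at 24572287 and at 24580719, 8432 nt apart. Both of these regions lie upstream of the second start, so they lie outside RNA that begins there. The other 5 regions in all 3 lists lie downstream of it. The next region, chr12:24593761-24593774, was alone in the middle of the gene, 21529 nt from the 5′ end and 23617 nt from the 3′ end. It scored 30.9, 26.2 and 38.4 at its highest, or percentiles 75.9, 74.2 and 75.0, the closest ranks across lists apart from those of the last region of the gene.

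**Figure D3:**
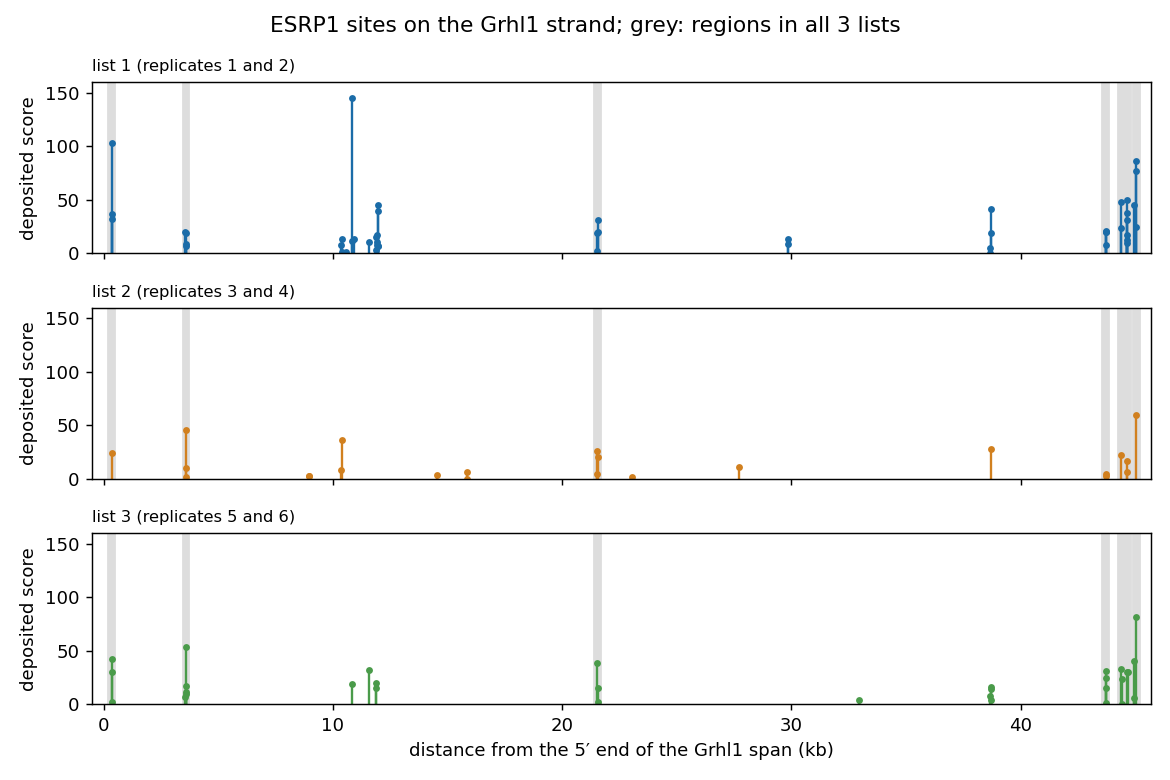
Deposited score of each ESRP1 site (vertical axis) against its distance from the 5′ end of the Grhl1 span in kb (horizontal axis), with 1 panel per list. Grey bands mark the 7 regions in all 3 lists, of which 4 crowd at the 3′ end; the tallest line, a score of 145 in list 1, stands between the bands at 3592 and 21529 nt.

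The last 4 regions in all 3 lists lay within 1338 nt, between 24615934 and 24617271, which is 2.96% of the span. That stretch held 16, 6 and 12 of the sites of lists 1, 2 and 3. The last 1000 nt of Grhl1 held 24 of its 105 sites (22.9%), with 24.0%, 17.4% and 25.0% in lists 1, 2 and 3. The first 1000 nt held 7 sites (6.67%), with 6.0%, 4.35% and 9.38%. In every list the last 1000 nt held more sites than the first 1000 nt. With windows of 500 nt this was not so: the last held 8 sites (7.62%) and the first 7 (6.67%), with equal counts in lists 2 and 3, where all genes of at least 4000 nt had 11.1% in the last and 7.66% in the first. A window of 1000 nt is 2.21% of the span, and a window of 500 nt is 1.11%. Over all genes with spans of at least 4000 nt, not matched to Grhl1 in span, the last 1000 nt held 17.8% of sites. The first 1000 nt of those genes held 9.13%.

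From the 5′ side, the first region of this group, chr12:24615934-24615945, ended 1446 nt before the end of the span. Its highest scores were 21.0, 4.58 and 31.2, at the same nucleotide 24615945 in all 3 lists, but with a percentile of only 21.4 in list 2 against 66.2 and 68.6 in lists 1 and 3. The second, chr12:24616617-24616619, ended 772 nt before the end and peaked at 24616617 in every list, with 47.9, 22.4 and 33.3 (percentiles 84.8, 68.7 and 70.6). The nucleotide was thus the same in all lists while the rank was highest in list 1.

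The next of the group, chr12:24616874-24616889, ended 502 nt before the end and had its highest score at a different nucleotide in each list, at 24616879 in list 1, 24616874 in list 2 and 24616889 in list 3. Its highest scores were 49.6, 16.9 and 30.4. It is the broadest Grhl1 region in all 3 lists, at 16 nt. The last, chr12:24617267-24617271, ended 120 nt before the end of the span and was the strongest of the 7 by mean percentile. Its scores at 24617271 were 86.2, 60.0 and 81.6, or percentiles 93.0, 91.4 and 92.0, and all 3 lists ranked it nearly alike.

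**Figure D4:**
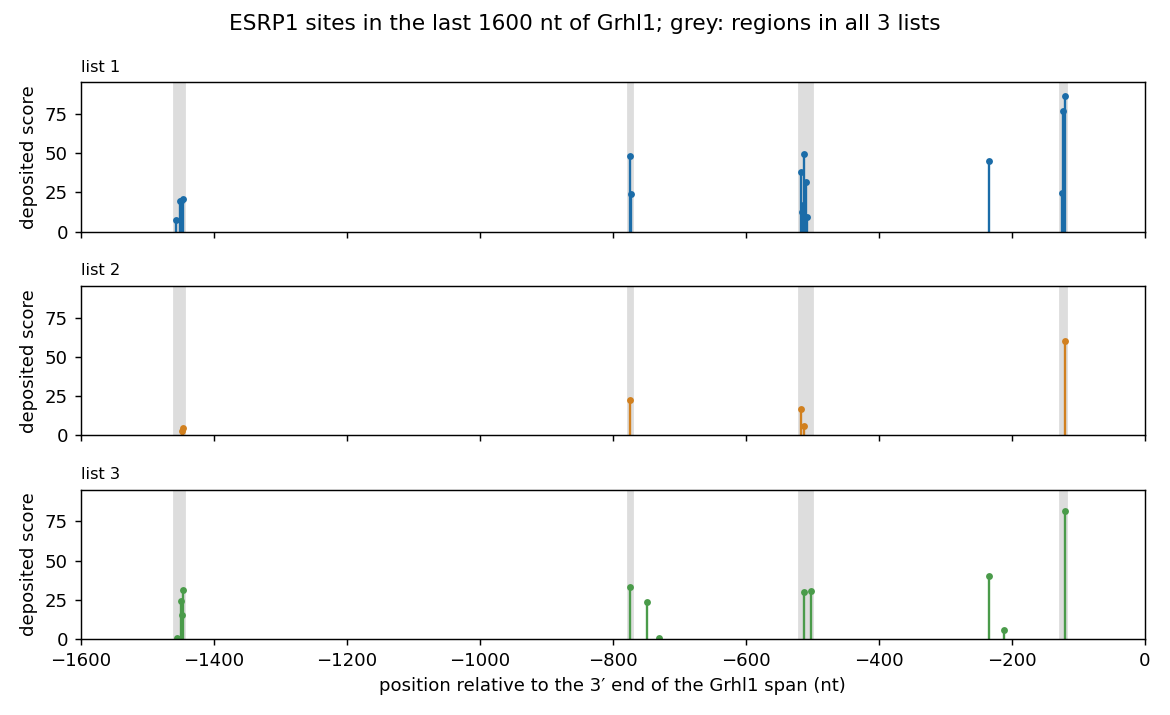
Deposited score of each site (vertical axis) in the last 1600 nt of the Grhl1 span, by position relative to its 3′ end in nt (horizontal axis), with 1 panel per list. Grey bands mark the 4 regions in all 3 lists, and lists 1 and 3 also share a site 234 nt before the end that list 2 lacks.

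The same nucleotide held the highest score in all 3 lists in 4 of the 7 Grhl1 regions, against 35.1% of 4790 regions in all 3 lists over the protein-coding genes. Of 74 nucleotides with a site in any list, 9 had one in each list (12.2%), which is close to the 12.7% of the whole series. By mean score percentile, the last Grhl1 region, at 92.1, stood above 86.6% of those 4790 regions. The weakest, at 24615934, stood at 52.1, above 18.9%. The Grhl1 regions therefore spread over much of the range of scores.

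Some Grhl1 contacts missed the requirement for all lists by little. Lists 1 and 3 had 4 sites each at chr12:24610898-24610916, and the nearest list 2 site lay 11 nt beyond, at 24610927, with a score percentile of 76.1. Regions joined at most 30 nt apart made this an eighth region. Between chr12:24582585 and 24584181, downstream of the second start, there were 9 regions over 1597 nt, of which 0 came from all 3 lists, 5 from 2 lists and 4 from 1 list. This stretch, picked after its values were seen, held 17, 2 and 4 sites in lists 1, 2 and 3. It includes the highest score of the gene in list 1, 145 at 24583057, where list 3 scored 18.6 and list 2 had no site. A group of 7 sites at chr12:24584172-24584181 was likewise present in list 1 and absent from lists 2 and 3. List 1 therefore accounts for most contacts of that stretch.

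Genes with the site counts most like those of Grhl1 were found among the 5234 genes of like span by the summed absolute difference in log2(sites + 1) over the 3 lists. The closest was Hnrnpm, a splicing factor gene, with 40, 22 and 36 sites, 6 regions in all 3 lists and a difference of 0.54. Mfsd14b followed with 44, 22 and 25 sites, 4 regions and 0.59. Rxra, a nuclear receptor gene, had 37, 28 and 30 sites, 7 regions and 0.79. Skint9, an epidermal butyrophilin-like gene that may share reads with close relatives, had 38, 24 and 22 sites, 5 regions and 0.97.

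Grhl3 had 5 regions, of which 1 came from all 3 lists. This region, chr4:135565919-135565939, lay 7693 nt from the 5′ end of the gene and 24032 nt from its 3′ end. It held 6, 1 and 3 sites, with highest scores of 38.1, 77.3 and 41.4 (percentiles 80.6, 94.2 and 77.3). The strongest nucleotide differed, at 135565929 in list 1, 135565920 in list 2 and 135565928 in list 3, but 135565920 had a site in every list. Its mean percentile of 84.0 stood above 71.2% of the regions in all 3 lists, higher than all but the last of the Grhl1 regions. List 2 thus had 1 site there, and that site was the one it ranked highest in the gene.

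A second Grhl3 place came close to recurring. Lists 1 and 3 shared a region at chr4:135554442-135554457 with the same strongest nucleotide, 135554442, at percentiles 55.0 and 75.4. Lists 2 and 3 shared a single nucleotide at 135554469, 12 positions away, at low percentiles of 4.8 and 0.9. Joined at most 30 nt apart, these made a second Grhl3 region in all 3 lists. Without list 1, and again without list 2, Grhl3 had 2 regions common to the other lists. The remaining Grhl3 sites were single and in list 2 alone, at 135553660 and 135546243. No Grhl3 site lay in the first or last 2000 nt of the span (0 of 19 sites), and the site nearest the 3′ end was 4356 nt from it. In Grhl1, 34 of 105 sites (32.4%) lay in the last 2000 nt. Over all genes with spans of at least 4000 nt, the last 2000 nt held 27.8% of sites and the first 2000 nt held 11.7%. The Grhl1 share was near that of these genes, and Grhl3, with few sites, lay below it, but the genes were not matched by span. A window of 2000 nt is 4.43% of the Grhl1 span and 6.3% of the Grhl3 span. The median span of protein-coding genes of given strand was 16908 nt, so the window covers a larger part of many of them. Genes of like span were not compared in this way.

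Grhl2 had 7 regions on its own strand, and 5 of them lay together near the 3′ end. The region in all 3 lists covered chr15:37361523-37361524, with 2045 nt between it and the end of the span. Its highest scores were 2.55, 4.44 and 21.4, at percentiles 16.1, 20.8 and 55.9, so lists 1 and 2 ranked it low. Its mean percentile of 30.9 stood above only 3.6% of regions in all 3 lists. Among the 50% of sites with the highest scores in each list, Grhl2 had 0 regions in all 3 lists, while Grhl1 had 6 and Grhl3 had 1. The Grhl2 call therefore rests on sites of low score.

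Just downstream, list 3 had further Grhl2 sites that ended 1754 nt before the end of the span. There were 3 of them at chr15:37361536-37361540, up to percentile 53.3, and single sites at 37361742 and 37361815. A region at chr15:37361632-37361636 came from lists 2 and 3, at percentiles 5.2 and 55.8. Elsewhere in Grhl2 there were 2 isolated sites, 55522 nt from the 5′ end in list 1 and 80505 nt from it in list 2. The Grhl2 contacts near the 3′ end were thus mostly those of list 3.

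**Figure D5:**
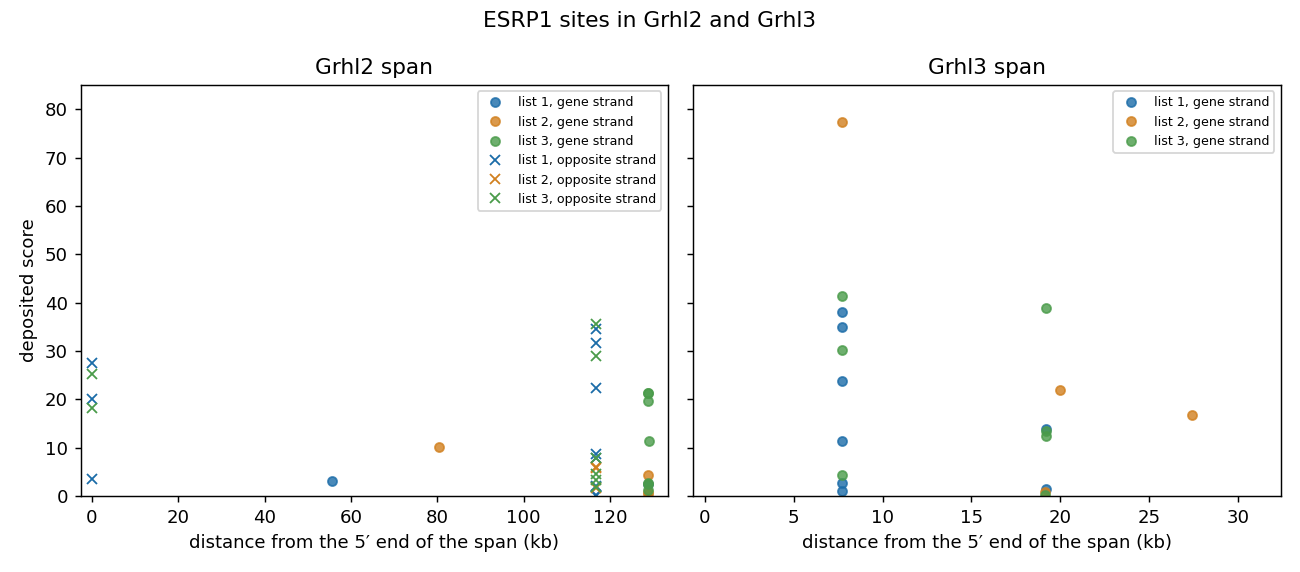
Deposited score of each site (vertical axis) against distance from the 5′ end of the span in kb (horizontal axis), for Grhl2 on the left and Grhl3 on the right, coloured by list. Circles are sites on the gene strand and crosses are sites on the opposite strand, which are present in the Grhl2 span (23 over the lists) and number 0 in the Grhl3 span.

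Over the lists together, the opposite strand of the Grhl2 span held 23 sites and its own strand 13. The opposite strand had 12, 3 and 8 sites in lists 1, 2 and 3, more than the own strand in lists 1 and 3 and 1 fewer in list 2. These lay in only 2 places and are not counted as contacts with Grhl2 RNA. At the 5′ end of the span, lists 1 and 3 had 3 and 2 sites at chr15:37232821-37232828. Here a long noncoding RNA gene, Gm16136, at chr15:37231921-37233159, overlaps Grhl2 by 339 nt. Its strand is not given in the annotation used, but all sites in its span lay on the minus strand, with 12, 4 and 12 in the lists and 2 regions in all 3 lists. The stronger of these, chr15:37232808-37232828, runs across the start of the Grhl2 span and peaked at 37232815 in every list, with scores of 88.8, 70.6 and 70.9 (percentiles 93.3, 93.3 and 89.8). It ranked far above the region on Grhl2 itself.

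The other minus-strand place, chr15:37349626-37349643, lay inside the Grhl2 span with no other annotated gene over it. It was found in all 3 lists with 9, 3 and 6 sites and highest scores of 34.5, 6.02 and 35.5 (percentiles 78.5, 27.0 and 72.6). Over 3203 protein-coding genes with at least 10 sites on both strands together, 90.3% of sites lay on the gene's own strand, and in 329 genes (10.3%) the opposite strand held more, as it did in Grhl2.

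The more distant relatives of the family were counted in the same way. Of the 3 CP2-type genes, Tfcp2, Tfcp2l1 and Ubp1, none had a region in all 3 lists, against 16.5% of protein-coding genes. A site in any list was present in 2 of the 3, against 34.1% of protein-coding genes. With only 3 genes, neither count can be told apart from the share over all genes. Tfcp2, a widely expressed factor, had 0 sites, Tfcp2l1 had 0, 3 and 0, and Ubp1 had 4, 0 and 5. Without list 2, 1 of the 3 genes had a region common to the other lists.

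Genes known as targets of Grainyhead-like factors in epithelia were also counted, as RNAs that ESRP1 could contact alongside those of their regulators. Of 28 listed genes, 22 had a given strand, and 8 of these (36.4%) had a region in all 3 lists, against 16.5% of all protein-coding genes of given strand. The median was 0 regions in both. A site in any list was present in 14 of the 22, against 34.1% of all protein-coding genes of given strand, and the other 8 had none. Among the 50% of sites with the highest scores, 5 of the 22 genes had a region in all 3 lists, against 11.8% of all genes. The remaining 6 listed genes have no strand in the tables used. Counted on either strand, 3 of these 6 had a region in all 3 lists, against 18.5% of all protein-coding genes counted that way.

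Dsg1a, a desmosomal cadherin gene and known target of Grhl1, had the most of the 28, with 8 regions in all 3 lists and 45, 16 and 47 sites on either strand. That is 1 region more than Grhl1, although Dsg1a may share reads with close copies. Cdh1, which encodes E-cadherin, had 4 regions and 20, 20 and 30 sites on either strand. Esrp1 itself had 3 regions and 21, 11 and 12 sites on either strand. These 3 genes are the ones without a given strand that had a region in all 3 lists.

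Of the genes with a given strand, Klf4, a transcription factor of barrier formation, had 4 regions and 21, 7 and 11 sites. Tgm3, a transglutaminase of the cornified envelope, had 3 regions and 17, 7 and 15 sites. Abca12, the lipid transporter of lamellar granules, had 2 regions and 13, 11 and 27 sites. None of the 22 listed genes with a given strand had as many regions as Grhl1. These counts are not scaled to span, and Klf4, at chr4:55527137-55532475, is a far shorter gene than Grhl1.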

How the data were processed

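ESRP1 eCLIP was made from epidermis of Esrp1FLAG/FLAG pups, and RNA was taken from membrane between 75 and 140 kDa, per the labels' protocols. The authors deposited 3 lists of 1-nt sites with a score, called with input per the file headers. PureCLIP is named in a label, and HOMER, HISAT2 2.1.0 and cutadapt 1.16 appear with the builds GRCm38 and mm10 in the submitters' processing notes, without roles. For alignment and site calling, settings were not stated in the labels or headers.

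Gene spans came from RefSeq on GRCm38.p6, 1-based. Strand came from the RefSeq promoter table for 17492 genes, and for Grhl2 from general knowledge. Overlapping genes on a strand were each given the shared sites. Distances count from the first or last base of a span. Genome sequence and exons were not used here, so the planned count of motif letters was not run. Exon, intron or untranslated region is not stated. None of the 9 regions in all 3 lists lies in a promoter window. Such a window runs from 250 nt before to 50 nt after a start, so it can cover little of a span. Grhl2 has no start in the promoter table, so its region could not be set against a window of its own gene. Counting used Python 3.11.15 with pandas 2.3.3 and numpy 2.4.6 and was tested on simulated data.

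The members and gene lists were chosen with earlier results of these data known. Genes outside the family were named by a fixed rule: all 3 CP2-type relatives, the 6 of 28 listed targets with most regions (on either strand where the strand is not given), and the 4 genes nearest Grhl1 in site counts. Alternatives were other joining distances, high-scoring sites, leaving out a list, either strand and longer spans. The either-strand share of all genes was added after the data were seen. Means and SDs are over lists of 2 pooled replicates, and no p-value was computed.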

Additional observations from a re-analysis of the deposited data

Results flagged for a closer look

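The Grhl2 span held 23 sites on the minus strand over the 3 lists, the strand opposite to the gene, and 1 minus-strand region in all 3 lists. This drew attention because sites on the opposite strand are outside the counts of the gene, and because Grhl1 and Grhl3 had 0. In list 2 there were 3 such sites, against 12 in list 1 and 8 in list 3. Their source was not tested.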

How the results depend on the processing

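No paired analysis was possible because each deposited list pools 2 replicates and carries no separate input values. Regions common to the lists kept, when a list was left out, numbered 7 to 13 in Grhl1 (13 without list 2), 1 to 2 in Grhl2 (2 without list 1) and 1 to 2 in Grhl3 (2 without list 1 or list 2). They were present in 0 to 1 of the CP2-type relatives, 8 to 10 of the listed targets and 17.9% to 20.5% of protein-coding genes. Joined at most 30 or 50 nt apart, Grhl3 had 2 regions in all 3 lists. With the 50% of sites of highest score, Grhl2 had 0, the listed targets with a region numbered 5, and summed sites were 57 in Grhl1, 3 in Grhl2 and 10 in Grhl3, since that choice removes sites by its construction. Counted on either strand, Grhl2 had 2 regions and 36 sites. The end of Grhl1 held 7.62% of its sites in the last 500 nt, beside 6.67% in the first 500 nt. Its last 2000 nt held 32.4%, against 27.8% over all genes with spans of at least 4000 nt, which were not matched to Grhl1 in span. Of 54 alternatives, 38 stayed within 1.5 times the reported count or within 1 SD over the lists of a share. Some of these could not move. Either-strand counts of Grhl1 and Grhl3 were fixed, as their opposite strands held 0 sites. The CP2-type count of 0 could not rise with fewer sites. Leaving out a list asks for recurrence in fewer lists, which tends to raise counts. The tally is therefore no measure of how robust the results are. The motif letters were not run. Read depth is unknown, so a missing site cannot be told apart from too few reads.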
